A study of Homo sapiens with 12 samples.

Results

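Transcript levels of 10 genes that mark stomach-like mucous epithelium and the classical subtype of pancreatic cancer were followed in 2 human pancreatic cancer cell lines: the trefoil factors TFF1, TFF2 and TFF3, the anterior gradient proteins AGR2 and AGR3, and ANXA10, LYZ, CTSE, LGALS4 and TSPAN8. The genes were chosen by current symbol among the 19775 genes named on the array, and all 10 were measured, by 12 probe sets that each name 1 gene. Where a gene has several, the brightest on average over the 12 arrays gives its value. AGR2 and LYZ have a second probe set, whose values are given beside the first. The lines, FG and L3.6pl, differ in metastatic potential per the series title, and L3.6pl is known to have been obtained by repeated passage through mouse pancreas and liver. Each line was grown in normoxia, where cells were left untreated, or with its final 24 h at 1% oxygen, in the same serum-containing medium from frozen stock for typically 9 days. The groups are FG normoxia, FG hypoxia, L3.6pl normoxia and L3.6pl hypoxia, with 3 arrays each and 12 in all. The sources used here do not say whether the 3 arrays of a group came from separate cultures, so p-values measure the spread between arrays, which may be technical. With 1 line of each kind, a difference between lines compares FG with L3.6pl only.

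Trefoil factors are small secreted peptides, held together by disulfide bonds, that are released with mucus and help epithelium to close over a wound. In the stomach TFF1 is made with the mucin MUC5AC by surface cells and TFF2 with MUC6 by gland cells, while TFF3 belongs to goblet cells of the intestine. AGR2 and AGR3 are protein disulfide isomerases of the endoplasmic reticulum, and AGR2 is needed for mucin folding. In pancreatic cancer these genes, together with the annexin ANXA10, the aspartic protease cathepsin E (CTSE), the lectin galectin 4 (LGALS4), the tetraspanin TSPAN8 and lysozyme (LYZ), are known as markers of the classical subtype.

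Levels are log2 of the authors' normalized intensity, on which the medians of the arrays ran from 5.29 to 5.37. No detection calls came with the values, and levels of different probe sets cannot be set against each other. Within groups, Pearson's r between arrays (taken over genes, which are no independent replicates) was 0.974 to 0.996. An array of 3 groups stood apart from the others of its group: replicate 1 of FG normoxia, replicate 1 of L3.6pl normoxia and replicate 3 of L3.6pl hypoxia, and calls that end or arise without them are given both ways. The epithelial markers EPCAM, CDH1, KRT8, KRT18 and KRT19 had mean levels of 10.2 (CDH1, the lowest) or more. Of these 5, 0 were called in FG and 1 rose in L3.6pl in hypoxia. Between lines 1 was higher in L3.6pl in normoxia, and 1 was higher and 2 lower in hypoxia. Of 8 acinar and endocrine markers 0 were called in FG and 1 rose in L3.6pl in hypoxia, and 1 was higher in L3.6pl under either condition. The acinar gene CEL was at 9.36 to 9.89 in L3.6pl hypoxia and at 6.87 or less in all other arrays. All 7 measured genes of a short list of oxygen-regulated genes, such as ADM and NDRG1, rose in hypoxia in both lines. As these are bulk samples, fewer cells that express a gene and less RNA per cell cannot be told apart. Of 6 markers of blood cells 0 were called in any of the 4 comparisons of groups, and the sum of their intensities lay between 234.9 and 269.7 in every array. For these 6 genes an unadjusted limma p below 0.05 was found for 1 in each of those 4 comparisons. Among all genes 10.7% were called in FG and 6.86% in L3.6pl in hypoxia, and 10.7% between lines in normoxia and 16.7% in hypoxia. Of 9 fibroblast and endothelial markers 1 passed between lines in normoxia and 3 in hypoxia. The collagen gene COL3A1 was lower in L3.6pl, at -5.42 ± 0.384 in normoxia and -4.93 ± 0.384 in hypoxia, and in hypoxia COL1A1 was lower at -1.43 ± 0.36 while the endothelial gene PECAM1 was higher at 0.98 ± 0.208. The summed intensity of the list, to which bright genes add most, ran from 2372.1 to 4666.5 in FG and from 703.8 to 1550.5 in L3.6pl arrays. The list did not move as a whole. LUM was at 2.42 to 2.70 in FG and at 2.90 to 6.29 in L3.6pl arrays, and COL1A2, DCN and PDGFRB were at 5.01 to 5.70 in all arrays. The part of these transcripts in the differences between lines was not tested. Differences are log2 differences ± standard error from limma with 3 arrays in each group, and a difference is called when its p, adjusted by Benjamini and Hochberg's method across the 19775 genes, is below 0.05.

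**Figure D1:**
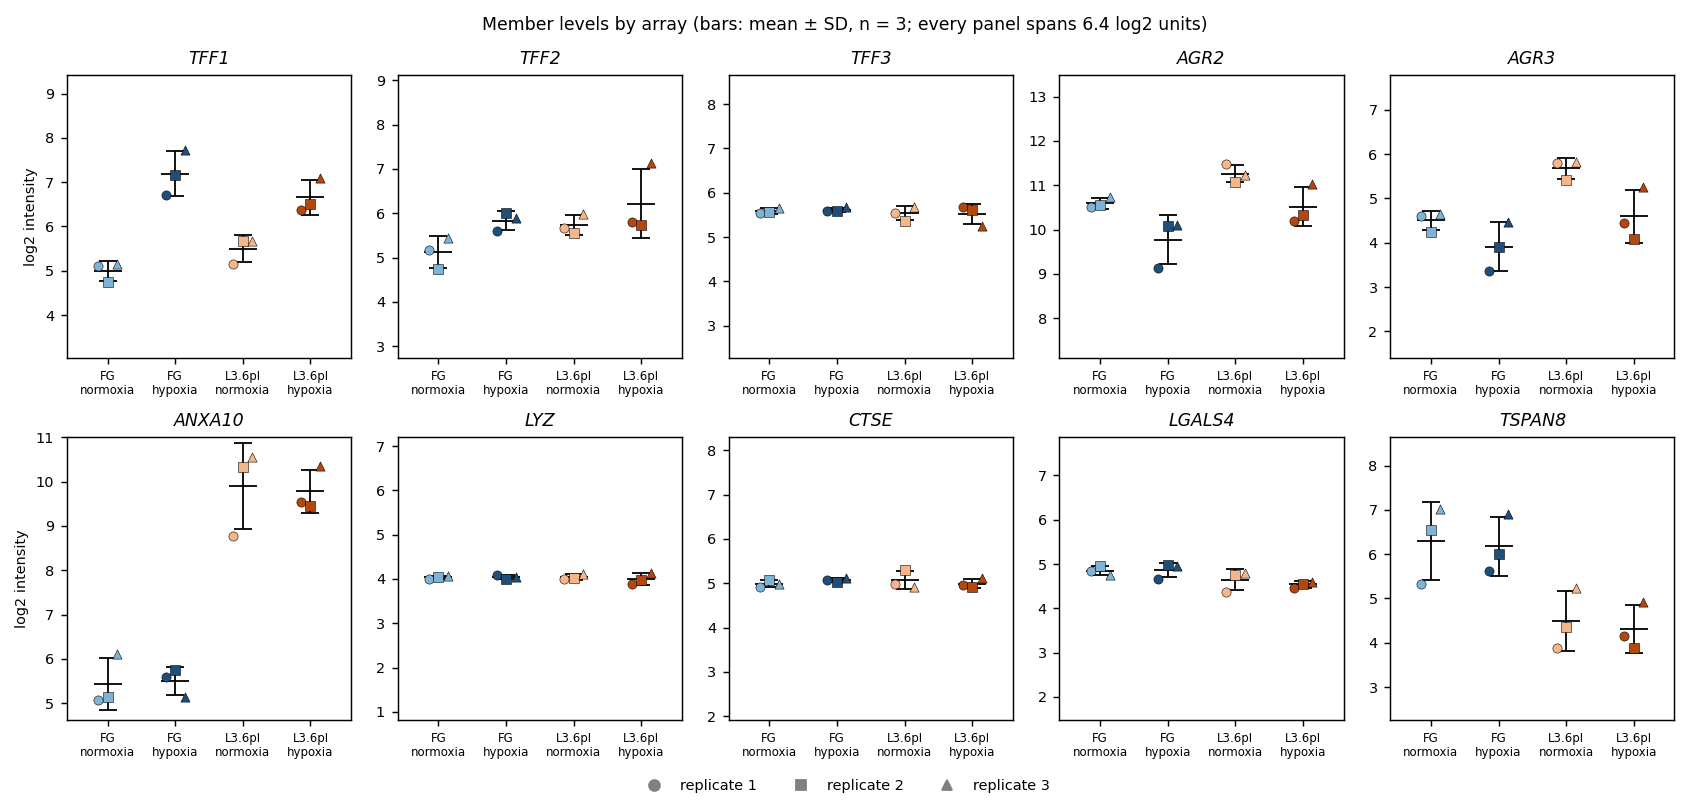
Level of each of the 10 genes in every array, as log2 intensity on the vertical axis, by group, with markers for the replicate number and bars for the mean and SD of 3 arrays. TFF1 is higher in hypoxia in both lines, ANXA10 is higher and TSPAN8 lower in L3.6pl, and TFF3, LYZ, CTSE and LGALS4 stay within 0.61 log2 units over all arrays.

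TFF1 rose in hypoxia in both lines. Its levels in FG were 5.11, 4.74 and 5.14 in normoxia and 6.70, 7.15 and 7.72 in hypoxia, replicates 1 to 3. In L3.6pl they were 5.14, 5.67 and 5.68 in normoxia and 6.37, 6.51 and 7.10 in hypoxia. In each line every hypoxia array lay above every normoxia array, and the levels of the lines overlapped in normoxia and in hypoxia. All FG normoxia levels lay below the array medians of 5.29 to 5.37, so without detection calls the size of the fold in FG is uncertain. The rise in FG was 4.58-fold, at 2.20 ± 0.272 (adjusted p = 0.000852), and 0.445% of all genes had a larger difference in either direction. It was called without any one of the 12 arrays, at 1.93 to 2.44. The rise in L3.6pl was 2.24-fold, at 1.16 ± 0.272 (adjusted p = 0.0288). That call ended without L3.6pl hypoxia replicate 2 (1.24, adjusted p = 0.0746) or replicate 3 (0.94, adjusted p = 0.0529), or without L3.6pl normoxia replicate 1 (0.98, adjusted p = 0.0895), replicate 2 (1.25, adjusted p = 0.0748) or replicate 3 (1.25, adjusted p = 0.062). Without all 3 arrays that stood apart the L3.6pl difference was 0.76 and was not called (adjusted p = 0.0878).

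The hypoxia effect on TFF1 was smaller in L3.6pl than in FG by 1.03 ± 0.385 on the log2 scale, which did not pass (adjusted p = 0.546). Arrays of FG and L3.6pl with the same replicate number deviated together within each oxygen condition. The r of their deviations was 0.528 to 0.735 in normoxia and 0.358 to 0.462 in hypoxia, and a differently numbered pair across conditions reached 0.454. This pairing is not in the labels. Fits with those numbers as a block within each condition were chosen after seeing the data, so their p-values, here and below, are exploratory. With that block the difference of hypoxia effects on TFF1 had a standard error of 0.223 and passed (adjusted p = 0.0465). With no block and without the 3 arrays that stood apart it was -1.49 and not called (adjusted p = 0.191). With the block on all arrays, TFF1 was lower in L3.6pl than in FG in hypoxia, at -0.53 ± 0.157 (adjusted p = 0.0341). Without the block the same difference had a standard error of 0.272 and did not pass (adjusted p = 0.238). In the fit without the block, that difference was -0.27 when FG hypoxia replicate 3 was left out (adjusted p = 0.59). With the block and without the 3 arrays that stood apart and their partners, which leaves 2 pairs in each condition, the TFF1 difference in hypoxia was -0.49 ± 0.131 (adjusted p = 0.0229) and the difference of hypoxia effects -1.22 ± 0.185 (adjusted p = 0.0141). Within the same-numbered pairs, TFF1 was higher in L3.6pl in 3 of 3 pairs in normoxia, by 0.04 to 0.94, and higher in FG in 3 of 3 pairs in hypoxia, with differences of -0.65 to -0.33. In normoxia the blocked difference was 0.50 ± 0.157 (adjusted p = 0.0524) and did not pass, and without the 3 arrays and their partners it was 0.74 ± 0.131 and passed (adjusted p = 0.00523).

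TFF2 lay in the same order within each line but passed in neither. Its levels in FG were 5.16, 4.74 and 5.45 in normoxia and 5.61, 6.01 and 5.88 in hypoxia, without overlap. In L3.6pl they were 5.67, 5.56 and 5.98 in normoxia and 5.80, 5.73 and 7.12 in hypoxia, where the last array, one of those that stood apart, lay well above all others. The hypoxia difference was 0.72 ± 0.329 in FG (95% interval -0.01 to 1.44, adjusted p = 0.221) and 0.48 ± 0.329 in L3.6pl (95% interval -0.25 to 1.21, adjusted p = 0.466). Without the 3 arrays that stood apart the FG difference was 0.74 and called (adjusted p = 0.0416), and the L3.6pl difference was -0.01 (adjusted p = 0.993). Without L3.6pl hypoxia replicate 3 alone the FG difference was also called, at 0.72 (adjusted p = 0.0281). Between the lines TFF2 was at 0.62 ± 0.329 in normoxia (adjusted p = 0.317) and 0.38 ± 0.329 in hypoxia (adjusted p = 0.518), and without that array the hypoxia difference was -0.07 (adjusted p = 0.888). With the block and without the 3 arrays and their partners the normoxia difference passed, at 0.68 ± 0.137 (adjusted p = 0.00902).

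TFF3 did not pass in any comparison. Its mean over the 12 arrays, 5.56, lay near the array medians of 5.29 to 5.37, and without detection calls its expression is uncertain. Its levels ran from 5.25 to 5.68 over the 12 arrays, and the lowest was again L3.6pl hypoxia replicate 3. Group means ± SD were 5.59 ± 0.06 in FG normoxia, 5.62 ± 0.05 in FG hypoxia, 5.53 ± 0.16 in L3.6pl normoxia and 5.52 ± 0.23 in L3.6pl hypoxia (n = 3 each). The 95% intervals of the hypoxia difference were -0.24 to 0.30 in FG and -0.29 to 0.25 in L3.6pl. The 3 genes lie side by side on chromosome 21 in the order TFF3, TFF2, TFF1 among protein-coding genes, with TMPRSS3 beyond TFF1. The difference between their hypoxia effects was not tested.

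**Figure D2:**
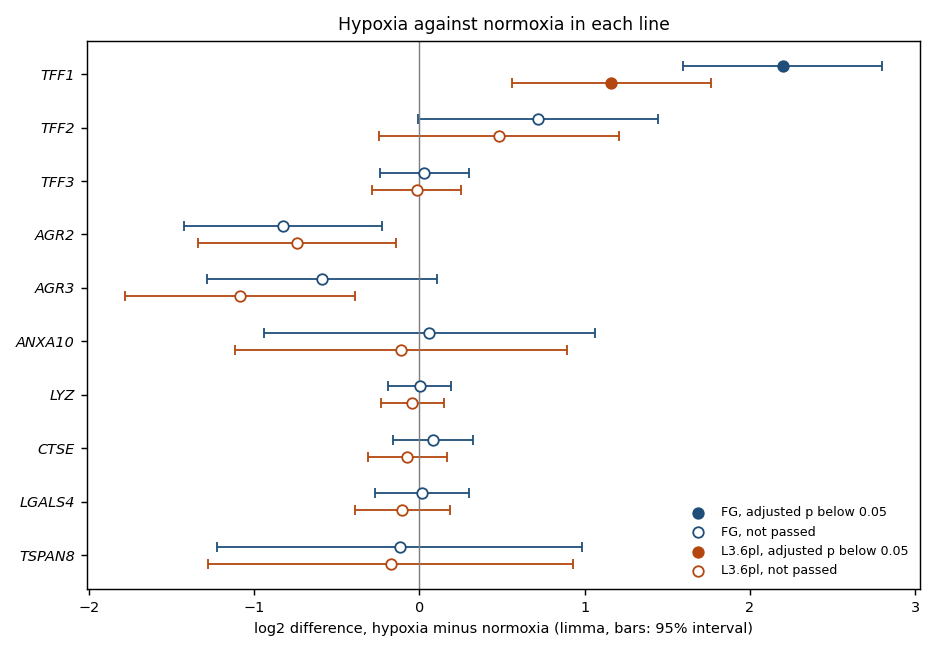
Log2 difference of hypoxia minus normoxia for each of the 10 genes in FG and in L3.6pl, with 95% intervals from limma and filled points for an adjusted p below 0.05. TFF1 is filled in both lines, at 2.20 in FG and 1.16 in L3.6pl, and AGR2 and AGR3 lie below 0 in both lines without passing.

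AGR2 and AGR3, neighbours on chromosome 7, both had lower group means in hypoxia than in normoxia in each line. AGR2 was at 10.50, 10.54 and 10.73 in FG normoxia and at 9.13, 10.08 and 10.10 in FG hypoxia. In L3.6pl it was at 11.47, 11.08 and 11.23 in normoxia and at 10.20, 10.34 and 11.02 in hypoxia. The oxygen groups did not overlap in either line, and the highest hypoxia array of L3.6pl was the one that stood apart. The difference was -0.82 ± 0.271 in FG (95% interval -1.42 to -0.23, adjusted p = 0.0823) and -0.74 ± 0.271 in L3.6pl (95% interval -1.34 to -0.14, adjusted p = 0.137), and neither passed. Without L3.6pl hypoxia replicate 3 both were called, at -0.82 in FG (adjusted p = 0.0414) and -0.99 in L3.6pl (adjusted p = 0.0354). Without FG hypoxia replicate 1, the lowest array at 9.13, the FG difference was -0.50 and not called (adjusted p = 0.236). Without all 3 arrays that stood apart the FG difference was called (-0.87, adjusted p = 0.0455) and the L3.6pl difference was not (-0.89, adjusted p = 0.0571). The second, dimmer probe set of AGR2 gave -0.77 ± 0.366 in FG and -0.69 ± 0.366 in L3.6pl, without a call in either (adjusted p = 0.231 and 0.339 over all probe sets).

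AGR3 was at 4.61, 4.25 and 4.66 in FG normoxia and at 3.36, 3.91 and 4.46 in FG hypoxia, which overlapped. In L3.6pl it was at 5.80, 5.41 and 5.83 in normoxia and at 4.45, 4.09 and 5.25 in hypoxia, which did not. The hypoxia difference was -0.59 ± 0.315 in FG (adjusted p = 0.3; -0.32 without FG hypoxia replicate 1) and -1.09 ± 0.315 in L3.6pl (95% interval -1.78 to -0.39, adjusted p = 0.0675). The L3.6pl difference was called without hypoxia replicate 3 (-1.41, adjusted p = 0.0104), without the 3 arrays that stood apart (-1.36, adjusted p = 0.0158) and with arrays centred on their medians (-1.05, adjusted p = 0.0408). In these alternatives the FG difference was not called.

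AGR3 was higher in L3.6pl than in FG in normoxia, 2.26-fold, at 1.18 ± 0.315 (adjusted p = 0.0371). As the FG levels lay below the array medians, the size of this fold is uncertain. Within same-numbered pairs the difference was 1.16 to 1.19 in all 3, and with the numbers as a block its adjusted p was 0.00102. Without the block, the call ended when FG hypoxia replicate 2 (adjusted p = 0.0577), replicate 1 (0.0607), 2 (0.132) or 3 (0.0657) of FG normoxia, replicate 1 (0.052) of L3.6pl hypoxia, or replicate 1 (0.104), 2 (0.0648) or 3 (0.123) of L3.6pl normoxia was left out. With any one array left out, the normoxia difference itself was 1.05 to 1.31. In hypoxia the AGR3 difference was 0.68 ± 0.315 (adjusted p = 0.185), and with the block 0.68 ± 0.153 (adjusted p = 0.00996). In the fit with no block it was 0.36 without L3.6pl hypoxia replicate 3 (adjusted p = 0.493) and 0.41 without FG hypoxia replicate 1 (adjusted p = 0.511). With the block and without the 3 arrays that stood apart and their partners, it was 0.63 ± 0.189 (adjusted p = 0.0371).

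AGR2 lay higher in L3.6pl than in FG in 3 of 3 pairs in normoxia, by 0.50 to 0.97, and in 3 of 3 in hypoxia, by 0.26 to 1.08. Without the block neither difference passed, at 0.67 ± 0.271 in normoxia (adjusted p = 0.17) and 0.75 ± 0.271 in hypoxia (adjusted p = 0.0888). With it both did, at ± 0.164 (adjusted p = 0.0201 and 0.00893). The normoxia difference also passed in a fit on the 2 groups compared (adjusted p = 0.026). With the block and without the 3 arrays that stood apart and their partners, the call ended in normoxia (0.52, adjusted p = 0.0701) and held in hypoxia (0.67, adjusted p = 0.0217). With no block, the hypoxia difference was 0.43 without FG hypoxia replicate 1 (adjusted p = 0.284) and 0.50 without L3.6pl hypoxia replicate 3 (adjusted p = 0.261). The dimmer probe set gave 0.29 ± 0.366 and 0.37 ± 0.366, not called. For both genes the highest group mean was that of L3.6pl normoxia and the lowest that of FG hypoxia. FG normoxia and L3.6pl hypoxia, the groups between them, overlapped in both genes.

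The 250 bases before the starts of AGR2 and AGR3 are shown because these neighbouring genes had differences of the same sign in all 4 comparisons of groups. The sequences are from RefSeq (GRCh38.p14), which gave 6 of the 10 genes a match, and run 5′ to 3′ along the gene. Capitals mark matches on either strand to the following words. ACGTG and also GCGTG are the core bound by hypoxia-inducible factors. For AP-1 the words were TGAGTCA and also TGACTCA. Those of the forkhead factors were TGTTTAC and also TGTTTGC, and TATTTAC as well. For GATA factors AGATAA was searched, and so was TGATAA. The TATA box was searched as TATAAA. The AGR2 stretch lies at chr7:16805000-16805249 and that of AGR3 at chr7:16881984-16882233, both on the minus strand.
AGR2: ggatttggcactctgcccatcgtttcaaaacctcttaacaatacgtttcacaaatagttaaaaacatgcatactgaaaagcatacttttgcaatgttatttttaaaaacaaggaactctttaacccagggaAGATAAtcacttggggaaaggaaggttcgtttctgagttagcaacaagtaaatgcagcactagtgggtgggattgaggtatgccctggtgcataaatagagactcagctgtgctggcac
AGR3: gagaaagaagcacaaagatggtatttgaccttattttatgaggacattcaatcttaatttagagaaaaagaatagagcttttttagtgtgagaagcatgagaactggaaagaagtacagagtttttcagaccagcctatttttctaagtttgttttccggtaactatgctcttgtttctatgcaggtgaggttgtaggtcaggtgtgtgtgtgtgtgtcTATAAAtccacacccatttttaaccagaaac

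The AGR2 stretch held 1 match, AGATAA 119 bases before the start, and that of AGR3 held 1, TATAAA at 31 bases. The 6 stretches searched were those of AGR2, AGR3, ANXA10, CTSE, LGALS4 and TSPAN8. No sequence was available for TFF1, TFF2, TFF3 and LYZ, which were not searched. The hypoxia core letters were in 0 of the 6 stretches and in 43.2% of 35116 promoters of the same length. GATA letters were in 4 of the 6 and in 14.6% of all, and TATAAA was in 2 of the 6 and in 10.7% of all. Forkhead letters were in 2 of the 6 and in 8.27% of all, and AP-1 letters in 0 of the 6 and in 4.2% of all. A match describes letters and is not evidence of a bound site, and the absence of a match says only that these letters are not in this window.

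**Figure D3:**
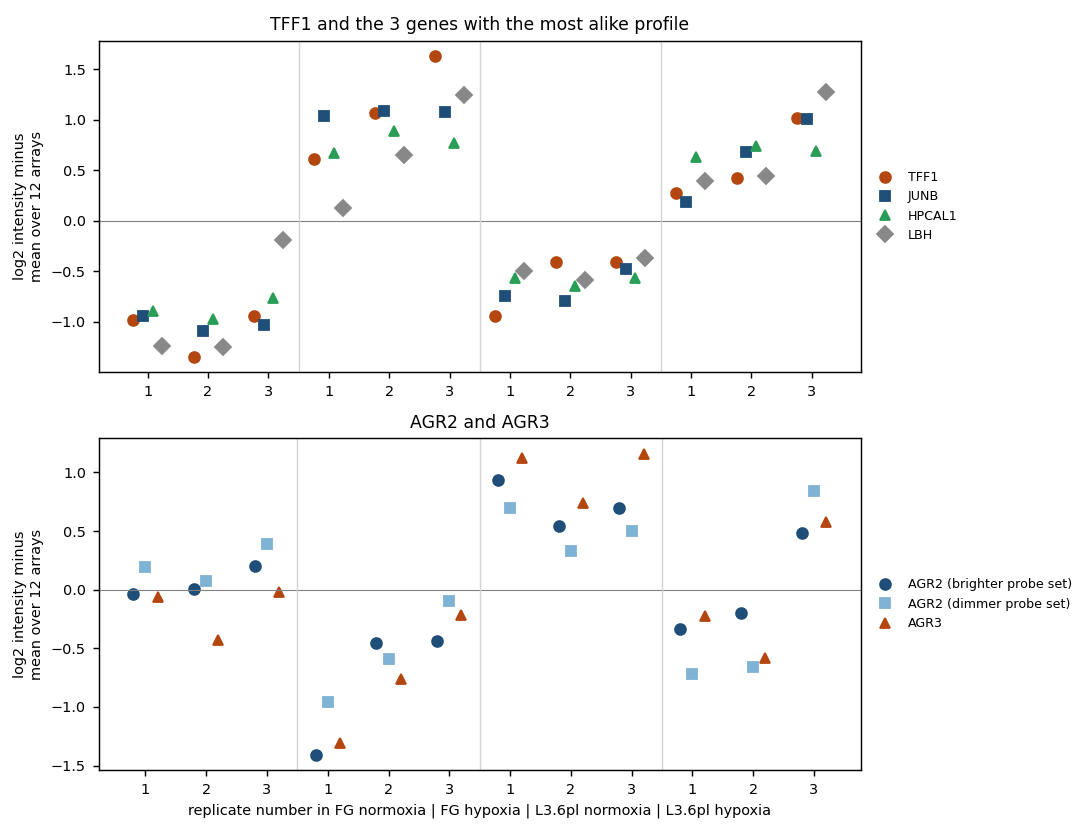
Log2 intensity minus the gene's own mean over 12 arrays, by array, for TFF1 with the 3 genes of most alike profile (top) and for both AGR2 probe sets with AGR3 (bottom). JUNB is the nearest to TFF1, but in FG hypoxia TFF1 climbs from replicate 1 to 3 (6.70, 7.15 and 7.72) while JUNB stays level (9.65, 9.70 and 9.69). In L3.6pl hypoxia, replicate 3 lies above replicates 1 and 2 for TFF1, both AGR2 probe sets and AGR3.

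ANXA10 showed the widest gap between the lines among the 10 genes. Its levels in FG were 5.06, 5.14 and 6.11 in normoxia and 5.60, 5.75 and 5.15 in hypoxia. In L3.6pl they were 8.78, 10.34 and 10.57 in normoxia and 9.55, 9.45 and 10.34 in hypoxia. All 6 L3.6pl arrays lay above all 6 FG arrays. ANXA10 was 22-fold higher in L3.6pl in normoxia, at 4.46 ± 0.454 (adjusted p = 0.000141), and 19.5-fold higher in hypoxia, at 4.28 ± 0.454 (adjusted p = 0.00013). Only 0.121% of all genes differed more between the lines in normoxia. Both calls held without any one array, at 4.12 to 5.01 in normoxia and 4.002 to 4.449 in hypoxia. The hypoxia difference was 0.06 ± 0.454 in FG (95% interval -0.94 to 1.06) and -0.11 ± 0.454 in L3.6pl (95% interval -1.12 to 0.89), and neither passed. Without the 3 arrays that stood apart the L3.6pl difference was -0.95 and called (adjusted p = 0.0474). Those arrays include L3.6pl normoxia replicate 1, at 8.78, and L3.6pl hypoxia replicate 3, at 10.34. With the block and without those arrays and their partners, the hypoxia effect on ANXA10 differed between the lines by -0.999 ± 0.238 (adjusted p = 0.049), where the fit on all arrays gave -0.17 ± 0.643 (adjusted p = 0.982).

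TSPAN8, which encodes a cell surface tetraspanin, went the other way between the lines. Its levels in FG were 5.32, 6.54 and 7.02 in normoxia and 5.61, 6.004 and 6.91 in hypoxia. In L3.6pl they were 3.89, 4.35 and 5.23 in normoxia and 4.14, 3.88 and 4.93 in hypoxia. The array numbered replicate 3 was the highest in each of the 4 groups, and no L3.6pl array reached the lowest FG array. TSPAN8 was 3.49-fold lower in L3.6pl in normoxia, at -1.80 ± 0.5 (adjusted p = 0.0426), and 3.63-fold lower in hypoxia, at -1.86 ± 0.5 (adjusted p = 0.0271). All its L3.6pl levels lay below the array medians of 5.29 to 5.37, so without detection calls the size of these folds is uncertain. Within same-numbered pairs the difference ran from -2.19 to -1.43 in normoxia and from -2.13 to -1.47 in hypoxia. With the numbers as a block the standard error was 0.165 and the adjusted p was 0.000171 in normoxia and 9.61e-05 in hypoxia.

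Without the block, the TSPAN8 calls depended on single arrays, while the difference kept its direction. With any one array left out it was -2.29 to -1.44 in normoxia and -2.16 to -1.49 in hypoxia. Leaving out an array of another group does not alter a difference, only the shared estimate of the spread and the adjustment. The normoxia call ended without FG hypoxia replicate 2 (adjusted p = 0.064), replicate 2 (0.135) or 3 (0.138) of FG normoxia, replicate 1 (0.0604) or 2 (0.0529) of L3.6pl hypoxia, or replicate 1 (0.142) or 2 (0.134) of L3.6pl normoxia. It also ended in a fit on the 2 groups compared (0.0863) and over single probe sets (0.0523). The hypoxia call ended without replicate 2 (0.066) or 3 (0.0934) of FG hypoxia, or replicate 1 (0.0755) or 2 (0.0935) of L3.6pl hypoxia. The hypoxia difference of TSPAN8 was -0.12 ± 0.5 in FG (95% interval -1.22 to 0.98) and -0.17 ± 0.5 in L3.6pl (95% interval -1.28 to 0.93), without a call.

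The promoters of ANXA10 and TSPAN8 are shown because these genes differed between the lines under both oxygen conditions, in opposite directions. The ANXA10 stretch is chr4:168092287-168092536 on the plus strand and the TSPAN8 stretch is chr12:71158000-71158249 on the minus strand (GRCh38.p14), with capitals as above.
ANXA10: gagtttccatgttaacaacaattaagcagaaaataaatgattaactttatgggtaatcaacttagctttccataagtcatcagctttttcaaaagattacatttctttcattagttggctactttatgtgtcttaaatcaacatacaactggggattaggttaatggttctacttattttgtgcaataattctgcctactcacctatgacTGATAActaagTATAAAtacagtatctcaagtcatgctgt
TSPAN8: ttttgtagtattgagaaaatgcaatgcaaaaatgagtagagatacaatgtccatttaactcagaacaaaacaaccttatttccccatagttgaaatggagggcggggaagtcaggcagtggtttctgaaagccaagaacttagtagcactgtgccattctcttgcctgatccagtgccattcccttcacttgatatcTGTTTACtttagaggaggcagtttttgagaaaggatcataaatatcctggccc

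The ANXA10 stretch held TGATAA at 40 and TATAAA at 29 bases before the start, and the TSPAN8 stretch held the forkhead letters TGTTTAC at 53 bases.

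**Figure D4:**
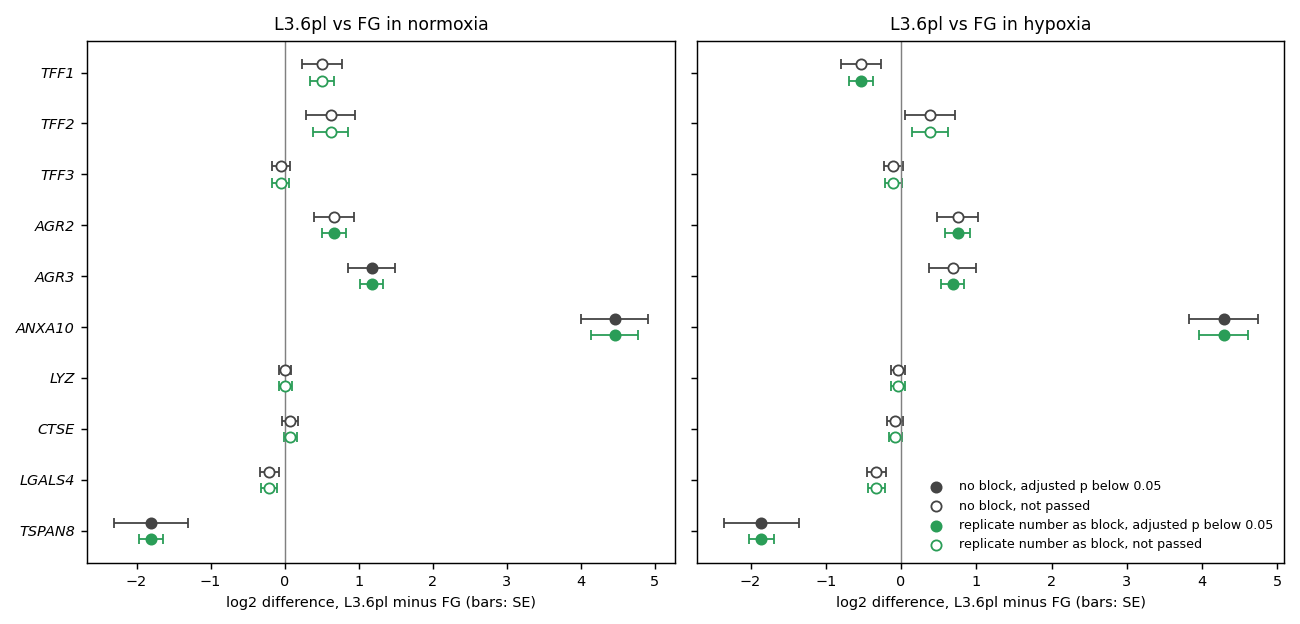
Log2 difference of L3.6pl minus FG for each of the 10 genes in normoxia (left) and hypoxia (right), with standard errors, without a block (grey) and with the replicate number within each oxygen condition as a block (green); filled points have an adjusted p below 0.05. The block leaves each difference where it is and narrows the error of TSPAN8 from 0.5 to 0.165, and of these 2 fits AGR2 passes in the one with the block. The fit with the block was chosen after seeing the data.

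Levels of LYZ, CTSE and LGALS4 varied little. Their means over the 12 arrays, 4.03, 5.03 and 4.72, lay below the array medians of 5.29 to 5.37. Without detection calls, a small range at such levels does not show that a gene was steadily expressed. LYZ, an enzyme that cleaves bacterial cell walls, ran from 3.88 to 4.14 over the 12 arrays, and 2.6% of all genes had a smaller range. Its second probe set ran from 2.60 to 2.80. CTSE ran from 4.92 to 5.30, with group means of 4.99 in FG normoxia, 5.07 in FG hypoxia, 5.07 in L3.6pl normoxia and 4.99 in L3.6pl hypoxia. Neither LYZ nor CTSE passed in any comparison, and all their 95% intervals for the hypoxia differences lay between -0.31 and 0.32.

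LGALS4, which binds galactose-bearing glycans at the cell surface, ran from 4.37 to 4.98. In hypoxia it was at 4.67, 4.98 and 4.95 in FG and at 4.46, 4.55 and 4.60 in L3.6pl, without overlap. That difference was -0.33 ± 0.130 (95% interval -0.61 to -0.04) and did not pass (adjusted p = 0.119; adjusted p = 0.0532 with the block). It was called in the limma fit with array weights (adjusted p = 0.0397). In normoxia LGALS4 was at 4.84, 4.95 and 4.76 in FG and at 4.37, 4.76 and 4.79 in L3.6pl, which overlapped.

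Over the 10 genes, 1 was called in FG in hypoxia, TFF1, against 10.7% of all genes, and the arrays of 3 did not overlap between the groups, against 27.9%. In L3.6pl 1 was called, also TFF1, against 6.86%, and 3 did not overlap, against 24.4%. Between the lines 3 were called in normoxia, AGR3 and ANXA10 higher and TSPAN8 lower in L3.6pl, against 10.7%, and 5 did not overlap, against 28.1%. In hypoxia 2 were called, ANXA10 higher and TSPAN8 lower, against 16.7%, and 4 did not overlap, against 32.1%. The hypoxia effect differed between the lines by limma for 0 of the 10, against 0.0253%, and for 1 at an unadjusted p below 0.05, TFF1. With the block, 4 were called between lines in normoxia, 5 in hypoxia and 1 for the difference of hypoxia effects. Among all genes the block moved the calls from 2116 to 4576 in normoxia, from 3310 to 5935 in hypoxia and from 5 to 703 for the difference of effects. The median log2 difference over the 10 genes was 0.02 in FG and -0.09 in L3.6pl in hypoxia, and 0.29 between lines in normoxia and -0.06 in hypoxia, where the median over all genes was between -0.03 and 0.02. Comparisons of lines and of oxygen share arrays, so their values are not independent.

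Of 12 other measured genes of the classical subtype list, tested for hypoxia against normoxia, 0 passed in FG by limma, with 2 at an unadjusted p below 0.05, and 1 passed in L3.6pl, near the shares of all genes called (10.7% and 6.86%). That gene was CEACAM6, a cell adhesion molecule, at 2.17 ± 0.404 (adjusted p = 0.0102). Between lines, 1 was higher and 1 lower in L3.6pl in normoxia: SPINK4 at 1.65 ± 0.387 and PRR15L at -1.05 ± 0.298. In hypoxia 2 were higher and 1 lower, with CEACAM6 at 3.28 ± 0.404. Among all genes 10.7% were called between lines in normoxia and 16.7% in hypoxia. Of 19 basal-like subtype genes, 2 rose and 1 fell in FG in hypoxia, against calls for 10.7% of all genes. In L3.6pl 4 rose and 1 fell in hypoxia, against 6.86%. SCEL rose in both, by 1.53 ± 0.175 and 1.66 ± 0.175. Between lines 6 were higher and 2 lower in L3.6pl in normoxia, against calls for 10.7% of all genes. In hypoxia 9 were higher and 2 lower, against 16.7%, among them TNS4 at 1.73 ± 0.208.

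A further list held 12 measured genes, mucins such as MUC1, MUC2, MUC5AC and MUC6 and genes of gastric epithelium such as CLDN18 and PGC. Tested for hypoxia against normoxia, 0 passed in FG by limma, with 1 at an unadjusted p below 0.05. In L3.6pl 1 passed, the transmembrane mucin MUC1 at 1.81 ± 0.476 (adjusted p = 0.0467). These counts too are near the shares of all genes called, 10.7% and 6.86%. The TFF1 partner MUC5AC was at 0.36 ± 0.161 in FG and 0.18 ± 0.161 in L3.6pl, and the TFF2 partner MUC6 at -0.08 ± 0.133 and 0.10 ± 0.133, none of them called. Between the lines MUC2, the mucin of goblet cells, was higher in L3.6pl at 4.13 ± 0.42 in normoxia and 4.39 ± 0.42 in hypoxia. MUC13, a transmembrane mucin, was lower at -3.44 ± 0.203 and -2.90 ± 0.203. MUC5B was higher in L3.6pl in hypoxia at 2.34 ± 0.508.

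Transcription factors of foregut and mucous epithelium included several that changed with oxygen. Of 16 measured, 4 rose and 1 fell in FG, against calls for 10.7% of all genes. In L3.6pl 3 rose and 1 fell, against 6.86%. GATA6, a factor of endoderm that marks the classical subtype, rose by 1.90 ± 0.193 in FG (adjusted p = 0.000296) and 1.39 ± 0.193 in L3.6pl (adjusted p = 0.0023). KLF4, a factor of epithelial differentiation, rose by 3.46 ± 0.293 and 2.24 ± 0.293. SOX2, a factor of stem cells and of foregut, fell by 2.78 ± 0.406 in FG, and FOXA1, a forkhead factor, fell by 0.77 ± 0.125 in L3.6pl. Between lines 5 were higher and 2 lower in L3.6pl in normoxia, against calls for 10.7% of all genes. In hypoxia 2 were higher and 2 lower, against 16.7%. HNF4G, a nuclear receptor of gut epithelium, was at -2.87 ± 0.262 in normoxia and -2.11 ± 0.262 in hypoxia.

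Of 12 measured relatives and partners of AGR2 in protein folding, 2 rose in each line in hypoxia, against calls for 10.7% of all genes in FG and 6.86% in L3.6pl. ERO1A, the oxidase that recharges disulfide isomerases, rose by 2.77 ± 0.243 in FG and 2.55 ± 0.243 in L3.6pl. The chaperone HSPA5 rose by 0.57 ± 0.142 in FG, and ERO1B by 0.84 ± 0.214 in L3.6pl. Between lines 0 of 12 passed by limma in normoxia or in hypoxia, with 2 and 3 at an unadjusted p below 0.05. Among all genes 10.7% and 16.7% were called there. XBP1, a factor of the unfolded protein response, was at -0.03 ± 0.187 in FG and 0.46 ± 0.187 in L3.6pl in hypoxia and was not called.

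Genes with the most alike profiles were sought over all 19775 genes for the 6 members whose group means span at least 1 log2 unit, by the root mean square difference of centred log2 values over the 12 arrays. For TFF1 they were JUNB (0.263), a subunit of AP-1, HPCAL1 (0.354) and LBH (0.354). For TFF2 they were MAP1B (0.23), CKB (0.252) and CIRSR (0.269). AGR2 was most like MINPP1 (0.2), SEPTIN8 (0.205) and NAGK (0.232), and AGR3 most like ADAMTS3 (0.259), NNMT (0.259) and SLC49A4 (0.279). For ANXA10 the nearest were farther off, S100A8 (0.564), SAGE1 (0.571) and HLA-DRA (0.583). TSPAN8 was most like S100A4 (0.206), NMU (0.283) and the noncoding RNA LINC01234 (0.329). S100A4 had its highest level of each group in replicate 3, as TSPAN8 had.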

How the data were processed

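RNA of 12 samples was measured on Affymetrix arrays. The authors deposited normalized intensity values on a linear scale, which the submitters' processing notes credit to RMA, and log2 of them was taken here. Of 54675 probe sets, 41091 name 1 gene in the platform annotation, 1801 several and 11721 none. Each gene was represented by its probe set with the highest mean, which left 19775 genes. All 12 arrays were fitted together with limma 3.58.1 in R 4.3.3 (lmFit and eBayes), with a mean per group, and p-values were adjusted by Benjamini and Hochberg's method. The scripts were tested on simulated data. The number of arrays limits the precision, and an exact test of 3 against 3 cannot go below p = 0.1.

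The members and gene lists were chosen with earlier results of these data known. Named genes are the 10 members, up to 4 called genes of each other list with the smallest adjusted p in a comparison, and the 3 genes of most alike profile for members whose group means span at least 1 log2 unit. MUC5AC, MUC6 and XBP1 were added after their values were seen. Whether replicate numbers pair the samples was checked by correlating deviations from group means. Between same-numbered arrays of FG and L3.6pl r was 0.528 to 0.735 in normoxia and 0.358 to 0.462 in hypoxia. Between oxygen conditions r was -0.217 to 0.259 in FG and -0.04 to 0.413 in L3.6pl, and the highest value in each line was that of replicate 3. The differently numbered FG normoxia replicate 1 and L3.6pl hypoxia replicate 2 reached 0.454. The labels do not say what a number marks. A pairing of the lines within a condition was therefore read from these values only and is not settled. The fits with this block, on all arrays and without the 3 that stood apart, were chosen after seeing the data. Alternatives covered scaling, the probe set rule, a filter on dim genes, the variance model, array weights, blocks and left-out arrays.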

Additional observations from a re-analysis of the deposited data

How the results depend on the processing

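Of 1110 alternative values of the 50 member differences, 982 kept their direction and side of the threshold, 33 came to pass it, 27 no longer passed and 68 changed sign. The sign changes fell on 22 differences, and 0 of the 68 were called before or after. A filter on dim genes removed 8 of the 10 members, TFF1 among them, and kept AGR2 and ANXA10, so it says nothing about the dim members. Of these 2, ANXA10 was called between lines in normoxia and in hypoxia with that filter, and AGR2 was not. Neither was called for hypoxia in FG or in L3.6pl. With probe sets tested singly, 4699 were called in FG, 2454 in L3.6pl, 3487 between lines in normoxia, 5705 in hypoxia and 26 for the difference of hypoxia effects. With array weights the genes called were 5729 in FG, 5192 in L3.6pl, 6623 between lines in normoxia and 421 for the difference of effects, and the members called were 3, 3, 6 and 1. Beside TFF1 these were TFF2 (adjusted p = 0.00332) and AGR2 (0.0134) in FG, and AGR2 (0.0133) and AGR3 (0.00407) in L3.6pl. For the difference of effects it was TFF1 (0.0243). Without the 3 arrays that stood apart 3871 genes and 3 members were called in FG, 4179 genes and 2 members in L3.6pl, and 19 genes for the difference of effects. With arrays centred on their medians TFF1 and AGR3 were called in L3.6pl. That centring called 11 genes for the difference of effects, which was 13 with the mean of all probe sets and 10 with a robust intensity trend. A fit on the 2 groups compared called 797 genes in L3.6pl. The split of calls in FG was 838 higher and 1279 lower, against 1087 and 1084 after cyclic loess and 1149 and 1109 after median centring. The causes were not tested.

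With the replicate number as a block over all 12 arrays, AGR2 was called in FG beside TFF1 (adjusted p = 0.048). In L3.6pl AGR3 was called beside TFF1 (adjusted p = 0.0181), where 2130 genes were called in all. For the difference of effects 13 genes were called. With the block within each oxygen condition, 4576 genes were called between lines in normoxia, 5935 genes and 5 members in hypoxia, and 703 genes and 1 member for the difference of effects. That block without the 3 arrays that stood apart and their partners called 5042 genes and 5 members between lines in normoxia, 6476 genes and 5 members in hypoxia, and 1424 genes and 2 members for the difference of effects.

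Leaving out 1 array at a time gave 1029 to 2899 genes and 1 to 3 members in FG, 508 to 2436 genes and 0 to 2 members in L3.6pl, 1254 to 2626 genes and 1 to 3 members between lines in normoxia, 2142 to 3813 genes and 1 to 2 members in hypoxia, and 2 to 23 genes for the difference of effects.

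The hypoxia difference in FG changed sign for LYZ with cyclic loess (-0.005), array weights (-0.012) and without the 3 arrays that stood apart (-0.013), for LGALS4 with array weights (-0.036) and for ANXA10 without the 3 arrays (-0.129). In L3.6pl it changed for TFF3 with cyclic loess (0.006), median centring (0.019), array weights (0.171) and without the 3 arrays (0.121), and for TFF2 without the 3 arrays (-0.006). Between lines in normoxia LYZ changed with cyclic loess (-0.007) and array weights (-0.001). Between lines in hypoxia TFF3 changed with array weights (0.008), without the 3 arrays (0.03) and without them in the fit with the replicate block (0.056), and TFF2 changed in the last 2 of these (-0.068 and -0.043). For the difference of effects, array weights turned TFF3 (0.143), AGR2 (-0.084) and TSPAN8 (0.116), and leaving out the 3 arrays turned TFF3 (0.117) and AGR2 (-0.015). With the replicate block as well it turned TFF3 (0.144) and TSPAN8 (0.194).

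Leaving out 1 array at a time, the values that changed sign ran as follows. In FG in hypoxia they were -0.129 to 0.394 for ANXA10, -0.018 to 0.027 for LYZ, -0.04 to 0.112 for LGALS4 and -0.607 to 0.245 for TSPAN8. In L3.6pl they were -0.1 to 0.115 for TFF3, -0.671 to 0.222 for ANXA10, -0.111 to 0.017 for LYZ, -0.147 to 0.043 for CTSE and -0.48 to 0.196 for TSPAN8. Between lines in normoxia they were -0.13 to 0.025 for TFF3, -0.029 to 0.029 for LYZ and -0.039 to 0.151 for CTSE. Between lines in hypoxia they were -0.068 to 0.628 for TFF2, -0.186 to 0.03 for TFF3 and -0.109 to 0.02 for LYZ. For the difference of effects they were -0.688 to 0.008 for TFF2, -0.13 to 0.085 for TFF3, -0.238 to 0.248 for AGR2, -0.73 to 0.163 for ANXA10, -0.113 to 0.015 for LYZ and -0.419 to 0.433 for TSPAN8.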
